A study of Mus musculus with 4 samples.

Results

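The genes examined here are those of oxidative phosphorylation, the process by which mitochondria pass electrons from nutrients to oxygen and use the released energy to make ATP. They were chosen by name from the 15575 genes of the deposited table. A nuclear gene was taken when its symbol began with Nduf followed by a subunit letter and a digit (complex I), was one of the Sdh subunit genes (complex II), or began with Uqcr (complex III), Cox4 to Cox8 (complex IV) or Atp5 (complex V). The protein genes of the mitochondrial genome (mtDNA), which the table lists without the usual mt- prefix, were added. This gave 97 genes, of which 84 are nuclear and 13 are encoded by mtDNA. Of the 84 nuclear genes, 78 are protein coding and 5 are pseudogenes. The remaining nuclear gene, Ndufb1-ps, is given as a noncoding gene in the deposited table but carries the symbol Ndufb1 in RefSeq. The subunit gene Ndufab1 and the ATP synthase inhibitor gene Atpif1 fall outside the naming rule and were not counted.

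The libraries were made from TG-elicited peritoneal macrophages of wild-type C57BL/6 mice, male and 8 to 12 weeks old. The AGEs group received BSA modified with dehydroascorbic acid (DHA) and the BSA group received the unmodified protein. Both proteins were injected into a vein at 10 mg/kg/day, beginning 24 h before thioglycollate (TG), which causes a sterile peritonitis and brings blood monocytes into the peritoneum. The cells were collected 72 h after TG, so both groups carry the TG inflammation and neither is a resting state. Each group had 2 libraries. The study calls them biological duplicates. Whether each stands for a single mouse or for pooled mice is not stated, so the p-values measure the spread between these libraries.

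Oxidative phosphorylation is built from the products of both genomes. Complex I takes electrons from NADH and complex II takes them from succinate, and both pass them to ubiquinone. Complex III hands them on to cytochrome c, and complex IV passes them to oxygen. Complex V, the ATP synthase, uses the proton gradient that complexes I, III and IV create. The mtDNA genes encode membrane subunits at the centre of complexes I, III, IV and V, while complex II is wholly nuclear. In macrophages the use of this pathway is known to differ with activation, being run down in cells stimulated with bacterial products and kept or raised in cells stimulated with interleukin 4. Transcripts of the mitochondrial genome are cut out of long precursor RNAs that cover both strands, whereas every nuclear subunit gene has its own promoter.

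The total counts were 23079245 and 24472926 in the AGEs libraries and 17773088 and 22146761 in the BSA libraries. All 7 of the listed macrophage markers were present, and their summed level was 14368 and 15134 CPM (read counts scaled to the size of the library) in the AGEs libraries and 17263 and 13648 CPM in the BSA libraries. AGEs replicate 2 stood apart in red cell RNA. Its erythroid markers (5 of 6 listed, led by the globins) summed to 221 CPM, against 2.45 CPM in AGEs replicate 1 and 8.79 and 18.1 CPM in the BSA libraries. B cell markers (7 of 7 listed) summed to 166 and 206 CPM in AGEs and 141 and 165 CPM in BSA. Dendritic cell markers (5 of 7 listed) summed to 7.47 and 10.4 CPM in AGEs and 16.9 and 14.5 CPM in BSA, and 4 of these 5 passed the threshold (a fold change over 1.5 at an unadjusted p under 0.05) downwards, against 0.945% of all genes. All 7 B cell markers had positive log2 fold changes, 2 of them (28.6%) at an unadjusted p under 0.05, against 3.43% of all genes upwards. Of the 6 mast cell and basophil markers tested, 1 passed upwards (Hdc, 1.21), against 0.825% of all genes. Of the 6 mesothelial and stromal markers tested, 1 passed downwards (Krt8, -1.16), against 0.945% of all genes. The part of these cells in the values of the oxidative phosphorylation genes was not tested. Neutrophil markers (5 of 10 listed) summed to between 116 and 145 CPM in all 4 libraries. T cell markers (3 of 8 listed) summed to between 5.39 and 7.34 CPM. Eosinophil markers (3 of 6 listed) summed to between 4.70 and 7.21 CPM. In RNA from mixed cells, fewer cells of a type and less RNA per cell cannot be told apart.

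The mitochondrial genes have a feature that limits how exactly reads can be assigned to them. A stretch of mouse chromosome 1 (GRCm38, from 24611535 to 24616197, minus strand) carries a copy of part of mtDNA. GENCODE annotates 7 genes in it. The copies of COX2 (Gm28661, 681 bases), ATP6 (Gm10925, 678 bases), COX3 (Gm28437, 783 bases), ND4L (Gm10222, 294 bases) and ND4 (Gm28439, 876 bases) have 0 mismatches over their whole annotated length. The copy of COX1 (Gm29216, 492 bases) has 6, all between positions 1056 and 1066 of COX1, and the copy of ND3 (Gm28438, 345 bases) has 1. None of these 7 copies is listed in the deposited table, and how reads that map to several places were treated is not stated in the sources used here. Counts of these 7 genes are therefore uncertain. ND1, ND2, ND5, ND6, CYTB and ATP8 have no annotated copy in this stretch, but the counts of ATP8 are uncertain too. It lies between COX2 and ATP6 in mtDNA, its last 43 bases are found without a mismatch at the start of Gm10925, and the 233 bases between the copies of COX2 and ATP6 were not read here. The first 43 bases of ND3 (chrM:9459-9501, plus strand) and of its copy (chr1:24613077-24613119, minus strand) are printed to show how alike the loci are. The only difference is T3C, with positions counted from 1 at the first base of ND3, and it stands in capitals.
ND3: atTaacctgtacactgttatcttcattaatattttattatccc
Gm28438: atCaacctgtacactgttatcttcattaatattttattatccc
The other sequence printed here is ATP8 (chrM:7766-7969, plus strand), the shortest of the 13 genes at 204 bases. Its last 43 bases, in capitals, are also the first 43 bases of ATP6, so reads from this stretch belong to both genes. ATP8 had the smallest p of the mtDNA genes.
ATP8: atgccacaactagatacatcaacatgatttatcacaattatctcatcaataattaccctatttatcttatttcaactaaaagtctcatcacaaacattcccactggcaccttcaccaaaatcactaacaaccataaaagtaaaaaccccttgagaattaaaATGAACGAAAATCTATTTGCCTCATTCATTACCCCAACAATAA

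None of the tested genes of either set passed the study's threshold in edgeR's quasi-likelihood test, where a gene counts as changed with a fold change beyond 1.5 in either direction and an unadjusted p under 0.05. The test covered 14181 genes, of which 1.77% passed. It covered 81 of the 84 nuclear genes and all 13 mtDNA genes. The pseudogenes Atp5l-ps1, Atp5l-ps2 and Atp5pb-ps had too few reads to be tested. DESeq2 called 0 of the 94 as well, where it called 1.01% of all genes. At an unadjusted p under 0.05 with no limit on fold, edgeR gave 3 of 81 nuclear genes (3.70%) and 1 of 13 mtDNA genes, against 5.64% of all genes, and DESeq2 gave 2 and 1. The smallest Benjamini-Hochberg adjusted p of any member was 0.848, and 0 of the 14181 genes had an adjusted p under 0.05. The intervals show how far these values are limited by the number of libraries. The 95% interval of the fold change lay wholly within 1.5-fold in either direction for 62 of 81 nuclear genes (76.5%) and 9 of 13 mtDNA genes, and for 53.6% of all genes tested.

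The 13 mtDNA genes had a median log2 fold change, AGEs over BSA, of -0.10, and the 81 nuclear genes had a median of 0.04. The median of all genes tested was -0.0026. Among the mtDNA genes 9 values were negative and 4 positive, and among the nuclear genes 33 were negative and 48 positive. By CPM, the groups did not overlap for 2 of 13 mtDNA genes, ND2 and ATP8, both with the AGEs libraries below the BSA libraries. They did not overlap for 33 of 81 nuclear genes (40.7%), with AGEs above in 19 and below in 14. Over all genes tested the groups did not overlap in 35.3%, with 17.7% in each direction. By TPM, the deposited level per transcript length, more mtDNA genes were separated. Both AGEs libraries then lay below both BSA libraries for COX1, COX3, ND1 and ND6 as well as ND2 and ATP8. COX1 had 4594 and 5201 TPM in AGEs and 5418 and 6029 TPM in BSA. The share of all genes separated by TPM was not computed, so the separation by TPM cannot be set against that of all genes. With limma on log2(TPM + 1) the median log2 fold change of all genes tested was itself below 0, at -0.07.

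**Figure D1:**
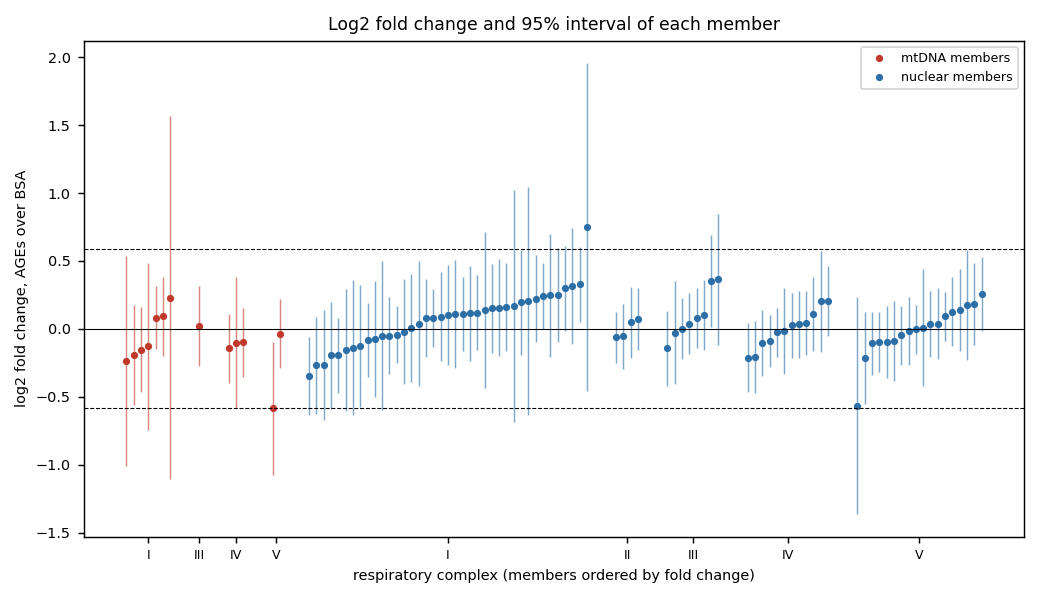
Log2 fold change (AGEs over BSA, vertical axis) of the 13 mtDNA genes (red) and the 81 tested nuclear genes (blue), grouped along the horizontal axis by respiratory complex and ordered by fold change within each. Points are edgeR estimates, vertical lines are 95% intervals and dashed lines mark 1.5-fold. The widest intervals belong to genes with few reads, such as ND4L and Ndufb4c, and most points lie close to 0.

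The mtDNA genes spanned a wide range of levels in these macrophages. By TPM, the deposited level per transcript length, the catalytic complex IV subunit COX1 was highest with a mean of 5311 TPM over the 4 libraries, followed by the other complex IV subunits COX3 (2595 TPM) and COX2 (795 TPM) and the complex I subunit ND3 (475 TPM). These 4 stood above every nuclear member, the highest of which was Cox4i1 at 297 TPM. The complex I subunit ND1 had a mean of 255 TPM, the ATP synthase subunit ATP6 218 TPM, the complex III subunit CYTB 115 TPM and the small ATP synthase subunit ATP8 71.4 TPM. The remaining complex I subunits were lower, with 59.96 TPM for ND5, 51.3 TPM for ND4, 21.01 TPM for ND2, 7.64 TPM for ND6 and 2.84 TPM for ND4L. ND4L shares its last 7 bases with ND4, and ND6 lies on the other strand beside ND5. COX1 alone accounted for 69.6% and 69.9% of the CPM of the 13 genes in the AGEs libraries and 71.1% and 70.0% in the BSA libraries.

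COX1, the catalytic core of complex IV (Entrez gene 17708, chrM:5328-6872), had 4963 and 5625 CPM in the AGEs libraries and 5133 and 6538 CPM in the BSA libraries. The groups overlapped, and the log2 fold change was -0.14 (SE 0.12). COX2, which carries the copper centre that receives electrons from cytochrome c, had 332 and 382 CPM in AGEs and 309 and 457 CPM in BSA, and COX3 had 1263 and 1406 CPM in AGEs and 1243 and 1612 CPM in BSA. For all 3 genes both AGEs libraries lay below BSA replicate 2. The log2 fold changes of COX2 and COX3 were -0.10 (SE 0.19) and -0.10 (SE 0.12).

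The complex I genes of mtDNA, which encode proton-pumping membrane subunits, gave a median log2 fold change of -0.13 over 7 genes. ND1 had 151 and 163 CPM in AGEs and 146 and 203 CPM in BSA. ND3 had 97.4 and 118 CPM in AGEs and 92.5 and 142 CPM in BSA, and ND4 had 49.5 and 49.9 CPM in AGEs and 39.6 and 53.5 CPM in BSA. In each of these 3 genes the AGEs pair lay inside the range of the BSA pair. ND5 had 76.2 and 76.7 CPM in AGEs and 65.4 and 78.9 CPM in BSA, the same arrangement. ND2 had 13.5 and 14.1 CPM in AGEs and 15.0 and 16.5 CPM in BSA, so that its groups did not overlap, at a log2 fold change of -0.19 (SE 0.17). ND6 had 2.23 and 2.76 CPM in AGEs and 2.60 and 3.26 CPM in BSA. ND4L was close to the limit of counting, with 18 and 13 reads in AGEs and 6 and 17 in BSA, and its log2 fold change of 0.23 had an SE of 0.62.

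CYTB, the only complex III subunit in mtDNA, had 84.8 and 95.8 CPM in AGEs and 75.3 and 102 CPM in BSA, with a log2 fold change of 0.02 (SE 0.13). ATP6, the proton channel subunit of complex V, had 94.7 and 105 CPM in AGEs and 89.3 and 115 CPM in BSA, with a log2 fold change of -0.03 (SE 0.12). Here too the AGEs libraries lay between the BSA libraries.

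ATP8, the other complex V subunit of mtDNA (Entrez gene 17706), had the lowest log2 fold change of all members tested. It had 7.42 and 8.40 CPM in the AGEs libraries and 9.73 and 14.0 CPM in the BSA libraries, from 170 and 204 reads in AGEs and 176 and 308 reads in BSA. Both AGEs libraries were below both BSA libraries. The log2 fold change was -0.584952 (SE 0.23, unadjusted p 0.0225, adjusted p 0.848), just short of the limit of 0.584963 that corresponds to 1.5-fold. Its call thus turned on the fifth decimal. ATP8 passed in 6 of 15 refits with other settings, among them scaling by library size alone (-0.60), and it did not pass in DESeq2. Without BSA replicate 1 its log2 fold change was -0.82, and without BSA replicate 2 it was -0.29. The 95% interval of ATP6, whose coding sequence overlaps that of ATP8, reached from -0.29 to 0.22 and left out the ATP8 value.

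**Figure D2:**
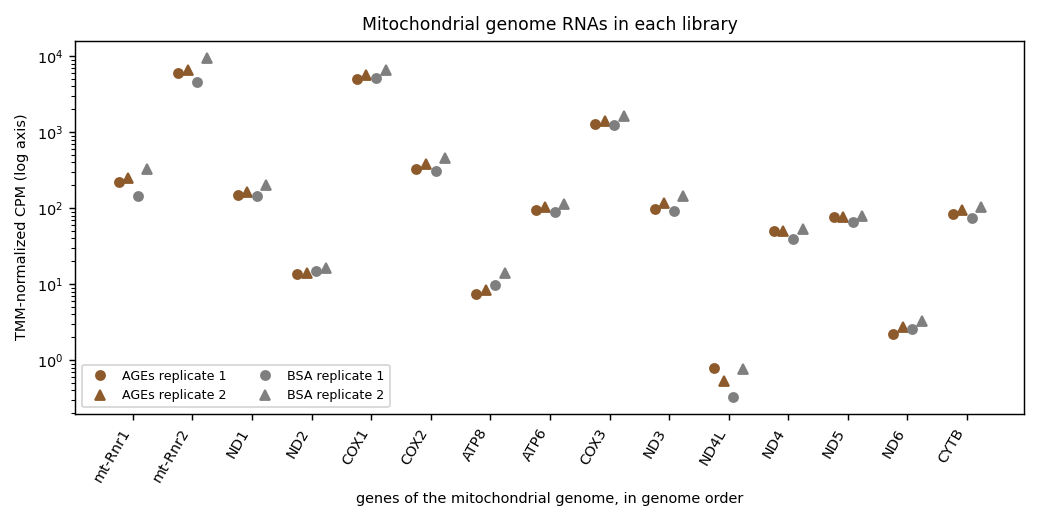
TMM-normalized CPM (vertical log axis) of the 2 mitochondrial ribosomal RNAs and the 13 mtDNA protein genes, in genome order along the horizontal axis. Brown symbols are AGEs libraries and grey symbols are BSA libraries, with circles for replicate 1 and triangles for replicate 2. For 12 of the 13 protein genes the highest point is BSA replicate 2, the exception being ND4L.

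By CPM, the BSA duplicates differed from each other more than the groups did. All 13 mtDNA genes were higher in BSA replicate 2 than in BSA replicate 1, by a median of 0.43 on the log2 scale and a range of 0.13 to 1.22. For 11 of the 13 genes this gap was larger than the difference between the groups, as it was for 44 of 81 nuclear genes and for 8788 of all 14181 genes tested (62.0%). In the AGEs duplicates 12 of 13 were higher in replicate 2, by a median of 0.16. BSA replicate 2 held the highest value for 12 of the 13 genes, and the lowest value was in BSA replicate 1 for 9 of them and in AGEs replicate 1 for the other 4. The 2 ribosomal RNAs of mtDNA, which lie upstream of the protein genes, had the same order with a wider gap. The larger of them, mt-Rnr2, had 6005 and 6569 CPM in AGEs and 4549 and 9562 CPM in BSA, and mt-Rnr1 had 220 and 249 CPM in AGEs and 144 and 330 CPM in BSA. The libraries were made after removal of ribosomal RNA, so these are residual levels. The summed macrophage markers ran the other way in the BSA pair, being higher in replicate 1. So did the markers of resident large peritoneal macrophages (5 of 5 listed). They summed to 494 and 454 CPM in AGEs and 474 and 330 CPM in BSA. Their part in the gap was not tested.

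The direction of the mtDNA median in the edgeR fits therefore rested on which BSA library was used. Without BSA replicate 1 the median was -0.28 and 0 of 13 values were positive. Without BSA replicate 2 it was 0.17 and 10 of 13 were positive. Without AGEs replicate 1 it was -0.02 and without AGEs replicate 2 it was -0.20. The SD of the mtDNA median between duplicates, 0.24 on the log2 scale, exceeded the difference between the groups.

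**Figure D3:**
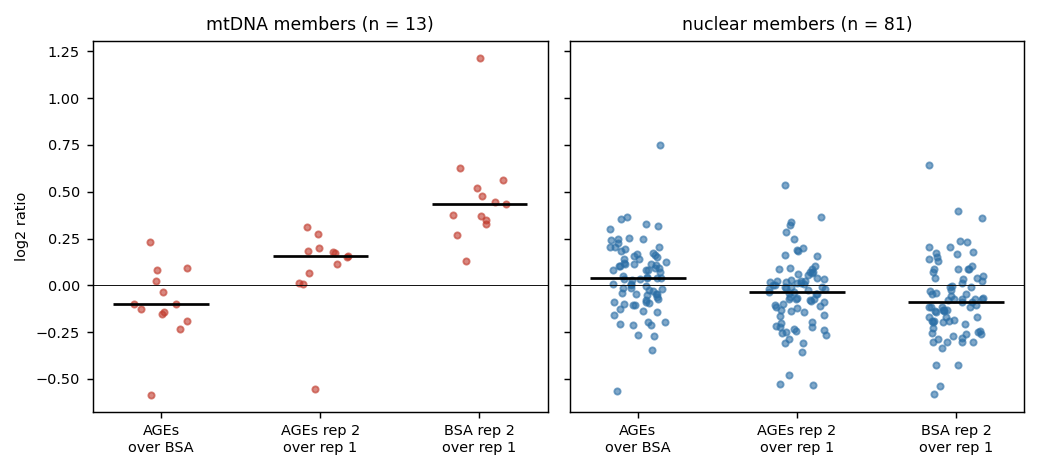
Log2 ratios (vertical axis) of each mtDNA gene (left, red) and each tested nuclear gene (right, blue) for AGEs over BSA, AGEs replicate 2 over replicate 1, and BSA replicate 2 over replicate 1. Horizontal bars are medians, and points are spread sideways only to be visible. The mtDNA genes sit above 0 between the BSA duplicates (median 0.43), whereas the nuclear genes scatter around 0 in all 3 columns.

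By CPM, the nuclear genes shifted less as a set between duplicates. Their median gap between the BSA duplicates was -0.09 and between the AGEs duplicates -0.03, and the SD of their median between duplicates was 0.06 on the log2 scale. The gaps of single nuclear genes ran in both directions. They reached from -0.58 to 0.64 between the BSA duplicates and from -0.53 to 0.53 between the AGEs duplicates. Of the 81 fold changes 60 were smaller than 0.2 on the log2 scale in either direction. The only one beyond 1.5-fold was the poorly covered Ndufb4c. By complex the medians were 0.10 for complex I (39 genes), -0.0024 for complex II (4 genes), 0.06 for complex III (8 genes), 0.0067 for complex IV (12 genes) and 0.0032 for complex V (18 genes tested of 21).

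In complex I, the NADH dehydrogenase, 25 of 39 nuclear genes had a positive log2 fold change and 14 a negative one. The 7 genes of the catalytic core, which hold the flavin and the iron-sulphur clusters, had a median of 0.16, and 6 of the 7 were positive. The 32 accessory genes, whose products surround the core, had a median of 0.10, with 19 positive. None passed the threshold.

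Both nuclear complex I genes with an unadjusted p under 0.05 were accessory subunits, and they differed in direction. Ndufa6, which belongs to the matrix arm (Entrez gene 67130, chr15:82350139-82354291), had 22.3 and 22.1 CPM in AGEs and 29.4 and 27.1 CPM in BSA. Ndufb8, of the membrane arm (Entrez gene 67264, chr19:44548571-44555442), had 40.1 and 34.5 CPM in AGEs and 27.9 and 31.5 CPM in BSA. In both the groups did not overlap, with AGEs below BSA for Ndufa6 and above it for Ndufb8. The log2 fold change was -0.35 (SE 0.13, unadjusted p 0.0214, adjusted p 0.848) for Ndufa6 and 0.33 (SE 0.13, unadjusted p 0.0240, adjusted p 0.848) for Ndufb8. Ndufb4c, the complex I gene with the fewest reads (19 and 23 in AGEs, 11 and 10 in BSA), had a log2 fold change of 0.75 (SE 0.56, unadjusted p 0.203). It is a close relative of Ndufb4 and Ndufb4b, and reads could be split between them.

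Complex II, succinate dehydrogenase, also belongs to the citric acid cycle. Sdha, the flavin subunit, had 143 and 139 CPM in AGEs and 143 and 152 CPM in BSA. Sdhb, the iron-sulphur subunit, had 45.9 and 46.9 CPM in AGEs and 45.4 and 42.9 CPM in BSA. The membrane anchor Sdhc had 45.4 and 40.6 CPM in AGEs and 43.5 and 45.7 CPM in BSA. The other anchor, Sdhd, had 53.4 and 48.4 CPM in AGEs and 54.4 and 44.1 CPM in BSA. The AGEs libraries lay above both BSA libraries for Sdhb, and the groups overlapped for the other 3. The log2 fold changes were -0.06 (SE 0.09) for Sdha, 0.07 (SE 0.11) for Sdhb, -0.05 (SE 0.11) for Sdhc and 0.05 (SE 0.12) for Sdhd. All 4 intervals lay within 1.5-fold, the widest reaching from -0.29 to 0.19 (Sdhc) and from -0.21 to 0.31 (Sdhd) on the log2 scale.

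In complex III, the cytochrome bc1 complex, 6 of 8 nuclear genes were positive and 2 negative. Uqcrh, the hinge protein that helps bind cytochrome c1 and the highest of them at 136 TPM, had 50.7 and 49.9 CPM in AGEs and 51.8 and 48.8 CPM in BSA, a log2 fold change of 0.0011 (SE 0.10). Uqcr11, a small accessory subunit (Entrez gene 66594, chr10:80402997-80406821), had 19.7 and 22.3 CPM in AGEs and 17.2 and 15.7 CPM in BSA. Its groups did not overlap, and the log2 fold change was 0.35 (SE 0.16, unadjusted p 0.0434, adjusted p 0.879). Uqcrq, which encodes the ubiquinone-binding protein QP-C and was the lowest of the 8 at 11.8 TPM, had 15.0 and 12.8 CPM in AGEs and 8.40 and 13.1 CPM in BSA. Its level in BSA replicate 1 was well under that of the other 3. The log2 fold change was 0.37 (SE 0.22), and without BSA replicate 2 it was 0.73 and passed the threshold, whereas without BSA replicate 1 it was 0.08.

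Complex IV, cytochrome c oxidase, had 6 positive and 6 negative log2 fold changes among its 12 nuclear genes, and all 12 intervals lay within 1.5-fold. Cox4i1, the regulatory subunit present in most tissues, had 151 and 144 CPM in AGEs and 150 and 150 CPM in BSA, a log2 fold change of -0.02 (SE 0.08). Cox7c, a small membrane subunit, had 42.2 and 39.9 CPM in AGEs and 51.6 and 43.5 CPM in BSA, with a log2 fold change of -0.21 (SE 0.12). Cox6a1, another small subunit, had 40.04 and 38.4 CPM in AGEs and 36.3 and 31.9 CPM in BSA, with a log2 fold change of 0.20 (SE 0.12). For Cox7c both AGEs libraries were below and for Cox6a1 both were above the BSA libraries, and the unadjusted p values were 0.0938 and 0.109. Several complex IV subunits exist as a form made in most tissues and a form made in muscle, heart, lung or hypoxic cells. The general forms Cox4i1, Cox6a1, Cox7a2, Cox8a and Ndufa4 are listed, whereas Cox4i2, Cox6a2, Cox7a1, Cox8b and Ndufa4l2 are not in the table and were not analysed here. Cox7a2 had 26.2 and 24.1 CPM in AGEs and 25.9 and 17.9 CPM in BSA, a log2 fold change of 0.20 (SE 0.17). Cox7a2l, which takes part in joining complexes III and IV into supercomplexes, had 115 and 108 CPM in AGEs and 121 and 116 CPM in BSA, a log2 fold change of -0.09 (SE 0.09). Cox8a, with 47.9 and 46.8 CPM in AGEs and 48.7 and 43.2 CPM in BSA, had a log2 fold change of 0.04 (SE 0.11). Ndufa4, once counted with complex I, had 34.5 and 30.8 CPM in AGEs and 28.7 and 31.6 CPM in BSA, a log2 fold change of 0.11 (SE 0.13).

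Complex V, the ATP synthase, had 9 positive and 9 negative log2 fold changes among its 18 tested nuclear genes. Atp5b, the catalytic beta subunit and the most abundant nuclear member after Cox4i1 (284 TPM), had 365 and 356 CPM in AGEs and 376 and 347 CPM in BSA. The AGEs pair lay within the BSA pair, and the log2 fold change was -0.0032 (SE 0.08), with a 95% interval from -0.18 to 0.18. Atp5d, a subunit of the central stalk, had 42.5 and 35.3 CPM in AGEs and 32.0 and 33.1 CPM in BSA. Its AGEs libraries were above both BSA libraries at a log2 fold change of 0.26 (SE 0.13, unadjusted p 0.0627). The pseudogene Atp5l2-ps, with 40 and 53 reads in AGEs and 52 and 65 in BSA, had a log2 fold change of -0.56 (SE 0.37). It resembles Atp5l, so its reads are uncertain. The pseudogene Atp5l-ps1 had 4 and 1 reads in AGEs and 2 and 1 in BSA and was not tested. The ATP synthase inhibitor Atpif1, outside the naming rule, had 30.5 and 27.9 CPM in AGEs and 30.9 and 30.3 CPM in BSA, a log2 fold change of -0.07 (SE 0.12).

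Set side by side, the summed level of the 13 mtDNA genes was 7136 and 8048 CPM in the AGEs libraries and 7221 and 9337 CPM in the BSA libraries. That of the 84 nuclear genes was 3375 and 3255 CPM in AGEs and 3359 and 3175 CPM in BSA. In CPM the nuclear sum differed by at most 1.06-fold between any 2 libraries. The mtDNA sum in CPM differed 1.29-fold between the BSA duplicates and 1.13-fold between the AGEs duplicates. The ratio of the mtDNA to the nuclear sum was 2.11 and 2.47 in AGEs and 2.15 and 2.94 in BSA. With 2 libraries per group the smallest two-sided p of an exact permutation test is 0.333, so this ratio was not tested. The mean ratio was 2.29 ± 0.253 in AGEs and 2.55 ± 0.559 in BSA (SD, n = 2 each), a difference smaller than the SD of the BSA pair. By summed TPM the nuclear genes had 5156 and 4954 in AGEs and 5857 and 4821 in BSA. The mtDNA genes had 8715 and 9828 TPM in AGEs and 9961 and 11414 TPM in BSA. In TPM the BSA duplicates thus differed more, in proportion, in the nuclear sum than in the mtDNA sum. Both AGEs libraries lay below both BSA libraries in the mtDNA sum by TPM.

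**Figure D4:**
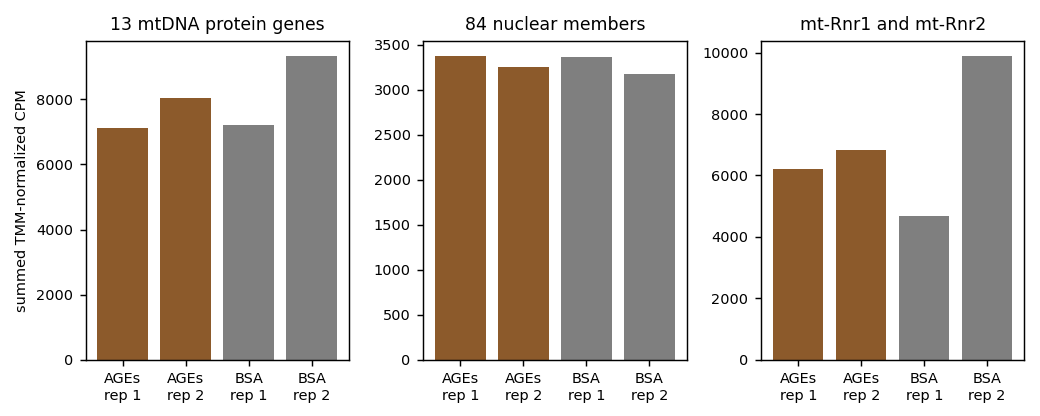
Summed TMM-normalized CPM (vertical axis from 0, with its own scale in each panel) in the 4 libraries for the 13 mtDNA protein genes, the 84 nuclear genes and the 2 mitochondrial ribosomal RNAs. Brown bars are AGEs libraries and grey bars are BSA libraries. The nuclear bars lie between 3175 and 3375, while BSA replicate 2 stands highest in both mitochondrial panels.

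Within complexes the balance of the 2 genomes differed widely, by summed TPM. The ratio of mtDNA to nuclear transcripts was 5.49 and 6.49 in AGEs and 5.43 and 7.48 in BSA for complex IV. It was 0.580 and 0.677 in AGEs and 0.574 and 0.842 in BSA for complex I. It was 0.203 and 0.238 in AGEs and 0.181 and 0.272 in BSA for complex III, and 0.149 and 0.173 in AGEs and 0.150 and 0.217 in BSA for complex V. In complexes I, III and IV both AGEs libraries lay within the range of the BSA pair, and in complex V AGEs replicate 1 was marginally below it. BSA replicate 2 was highest in each. The median difference between the sets, mtDNA minus nuclear, was -0.14 on the log2 scale, against an SD of 0.29 between duplicates. It was -0.35 without BSA replicate 1 and 0.18 without BSA replicate 2.

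Base composition differed between the sets, with some overlap, and moved with the fold changes. The median GC content of the transcript was 37.1% for the mtDNA genes and 50.02% for the nuclear genes. It was 49.5% for the 14118 listed genes with a GC value. Across genes, which are not independent and share the same 4 libraries, Spearman's rho between GC content and log2 fold change was 0.49 over the 13 mtDNA genes and 0.39 over 79 nuclear genes. It was 0.32 over 13159 genes of the whole table and 0.47 over the 8714 genes above a log2 CPM of 3. ATP8 had the lowest GC content of the 13, at 31.9%, and ND4L the highest, at 41.1%. After each library's trend on GC content was removed, the median was -0.03 for the mtDNA genes and 0.02 for the nuclear genes, and ATP8 was at -0.49. The part of base composition in the difference between the sets was not tested.

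**Figure D5:**
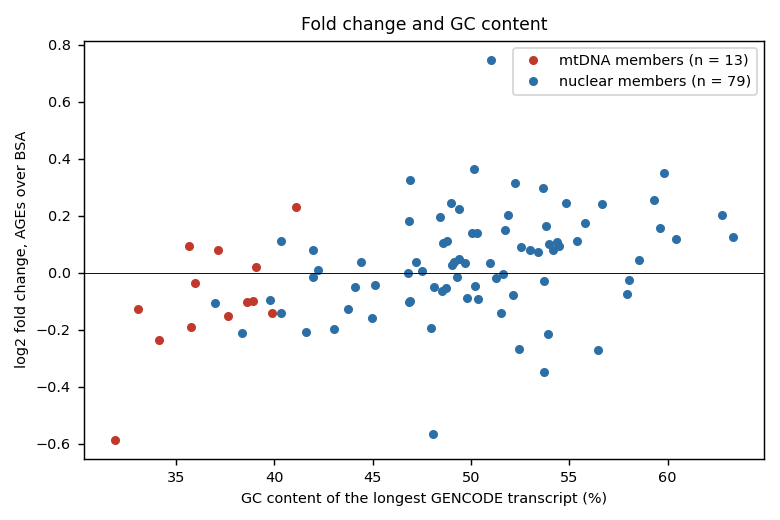
Log2 fold change (AGEs over BSA, vertical axis) against transcript GC content in percent (horizontal axis, longest transcript in GENCODE) for the 13 mtDNA genes (red) and 79 nuclear genes (blue). ATP8 is the point at the far left with the lowest value, and the mtDNA genes occupy the range from 31.9% to 41.1%, below most nuclear genes.

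Nuclear subunit genes are known targets of nuclear respiratory factor 1 (NRF1), of the ETS factor GABP and, for some, of YY1 and the oestrogen-related receptors (ERR). RefSeq promoter windows of GRCm38.p6, reaching from 250 bases before to 50 after the start, were at hand for 66 of the 84 nuclear genes and for 27025 genes in all. The letters GCGCA and GCGC with any base between them (NRF1) occurred on either strand in 17 of the 66 (25.8%), against 5.19% of all genes with a window and 11.2% of those also tested for expression. The letters CCGGAAG (ETS) occurred in 17 (25.8%), against 9.93% and 19.9%. The letters AAGATGGC (YY1) occurred in 10 (15.2%), against 3.19% and 5.40%, and AAGGTCA (ERR) in 8 (12.1%), against 5.38% and 3.89%. The letters CCAAT (NF-Y) were as frequent in the 66 (40.9%) as in all genes (41.1%). None of these strings contains another, and a match is only an occurrence of the letters. Genes with the NRF1 letters had a median log2 fold change of 0.05 (17 genes) and those without 0.03 (49 genes). For ETS the medians were 0.05 and 0.03 and for YY1 -0.07 (10 genes) and 0.05 (56 genes). For ERR they were 0.04 (8 genes) and 0.04 (58 genes), and for NF-Y 0.0096 (27 genes) and 0.08 (39 genes). The promoter windows of Ndufa6 (chr15:82354242-82354541), Ndufb8 (chr19:44555393-44555692) and Uqcr11 (chr10:80406772-80407071), all on the minus strand, are printed because these were the nuclear genes with an unadjusted p under 0.05. The capitals mark the NRF1 letters in Ndufa6, the YY1 letters in Ndufb8 and the ETS letters in Uqcr11. In Ndufa6 the NRF1 letters stand on the opposite strand, so their reverse complement is what is printed. The letters of NF-Y and ERR are not marked, and the window of Ndufa6 also holds those of NF-Y.
Ndufa6: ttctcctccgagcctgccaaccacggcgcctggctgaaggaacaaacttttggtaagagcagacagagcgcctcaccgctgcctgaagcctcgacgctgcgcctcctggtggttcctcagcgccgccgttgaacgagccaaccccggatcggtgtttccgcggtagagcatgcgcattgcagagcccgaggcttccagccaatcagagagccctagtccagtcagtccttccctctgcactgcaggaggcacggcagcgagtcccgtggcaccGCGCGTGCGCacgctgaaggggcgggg
Ndufb8: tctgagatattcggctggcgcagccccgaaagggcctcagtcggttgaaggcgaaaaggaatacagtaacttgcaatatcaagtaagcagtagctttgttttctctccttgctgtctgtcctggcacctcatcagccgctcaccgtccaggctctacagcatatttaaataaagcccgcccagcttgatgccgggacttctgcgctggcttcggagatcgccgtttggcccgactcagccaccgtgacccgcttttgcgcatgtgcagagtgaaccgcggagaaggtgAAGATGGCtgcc
Uqcr11: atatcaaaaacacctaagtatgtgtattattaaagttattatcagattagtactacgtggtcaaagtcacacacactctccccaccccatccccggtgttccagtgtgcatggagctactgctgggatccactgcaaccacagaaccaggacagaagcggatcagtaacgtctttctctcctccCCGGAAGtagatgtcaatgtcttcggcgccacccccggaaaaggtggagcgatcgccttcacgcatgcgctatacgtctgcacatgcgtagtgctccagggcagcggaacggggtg

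Of the regulators of these genes, 8 were tested and 0 passed the threshold (edgeR; 1 had an unadjusted p under 0.05, which is 12.5% of them against 5.64% of all genes, and 0 passed in DESeq2). Esrra, an oestrogen-related receptor, had 36.4 and 36.8 CPM in AGEs and 19.2 and 31.5 CPM in BSA, a log2 fold change of 0.53 (SE 0.20, unadjusted p 0.0248, adjusted p 0.848). Without BSA replicate 2 it was 0.94 and passed the threshold, and without BSA replicate 1 it was 0.21 and did not. In each of these fits the lone BSA library is assumed to vary like the AGEs pair. Gabpb1, a GABP subunit, had 21.2 and 22.9 CPM in AGEs and 26.6 and 25.1 CPM in BSA, a log2 fold change of -0.23 (SE 0.14). In both genes the groups did not overlap, with AGEs above for Esrra and below for Gabpb1. Of the coactivators of these factors, Ppargc1b passed without BSA replicate 2 (0.63) but was at -0.02 without BSA replicate 1. Ppargc1a passed without BSA replicate 1 (-1.61) or AGEs replicate 1 (-2.13) but was at -0.09 without BSA replicate 2. These last 2 genes were named after their values were seen. The median of the 8 was 0.04.

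The genes that keep and read mtDNA (28 of 28 tested) had 0 past the threshold in edgeR and in DESeq2, 2 at an unadjusted p under 0.05 (7.14%, against 5.64% of all genes), and a median of 0.05. Fastk, of a family of mitochondrial RNA-binding proteins, had a log2 fold change of 0.37 (SE 0.14, unadjusted p 0.0220, adjusted p 0.848), and Polg, the mtDNA polymerase, of 0.21 (SE 0.09, unadjusted p 0.0343, adjusted p 0.878). Among 51 tested factors that assemble the complexes 1 passed (1.96%, against 1.77% of all genes). Coa6, which helps deliver copper to complex IV, had 5.72 and 8.81 CPM in AGEs and 4.15 and 4.08 CPM in BSA, a log2 fold change of 0.82 (SE 0.28, unadjusted p 0.0120, adjusted p 0.848), and without AGEs replicate 2 it was 0.48 and did not pass. The assembly factor with the next smallest p, Cmc2, had a log2 fold change of -0.65 (unadjusted p 0.0611). The median of the 51 was 0.01.

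Mitochondrial ribosomal proteins, which translate the 13 mtDNA messages, had 2 of 80 tested genes past the threshold upwards and 0 downwards, against 0.825% and 0.945% of all genes. At an unadjusted p under 0.05 there were 6 upwards and 0 downwards, against 3.43% and 2.21% of all genes. Mrps28, of the small ribosomal subunit, had 7.07 and 7.21 CPM in AGEs and 4.03 and 4.03 CPM in BSA, a log2 fold change of 0.82 (SE 0.25, unadjusted p 0.00642, adjusted p 0.832), and it passed in all 15 refits with other settings. Mrps34, also of the small subunit, had 6.16 and 8.56 CPM in AGEs and 3.70 and 5.53 CPM in BSA, a log2 fold change of 0.67 (SE 0.28, unadjusted p 0.0357, adjusted p 0.879). Mrps34 passed in 9 of the 15. It did not pass without BSA replicate 1 or without AGEs replicate 2 (0.41 each), in DESeq2 (unadjusted p 0.0503), with the GC trend removed (0.50, and 0.51 with the replicate block as well) or with limma on log2(TPM + 1) (0.53). The median of the 80 was 0.02.

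Genes of the citric acid cycle and pyruvate dehydrogenase (17 tested) and of the electron carriers, ubiquinone synthesis and nucleotide exchange (26 tested) had 0 past the threshold, with 1 (5.88%) and 2 (7.69%) at an unadjusted p under 0.05, against 5.64% of all genes. Their medians were -0.01 and -0.01, and DESeq2 also called 0 in each. Dld, the dihydrolipoamide dehydrogenase shared by several enzyme complexes, had 60.04 and 52.2 CPM in AGEs and 67.5 and 69.2 CPM in BSA, a log2 fold change of -0.29 (SE 0.10, unadjusted p 0.0173, adjusted p 0.848). Idh3b, a subunit of the NAD-dependent isocitrate dehydrogenase, had a log2 fold change of 0.20 (SE 0.10). Gpd2 and Etfdh, which feed electrons to ubiquinone beside complexes I and II, stood at -0.34 (SE 0.13, unadjusted p 0.0224, adjusted p 0.848) and -0.34 on the log2 scale (SE 0.15, unadjusted p 0.0463, adjusted p 0.879).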

How the data were processed

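RNA-seq of 4 libraries (2 AGEs, 2 BSA) was analysed. The authors depleted ribosomal RNA, made strand-specific libraries and mapped the reads to mm10 (GRCm38). Per the submitters' processing notes HISAT2, StringTie and DESeq2 were used. Read counts for each gene, as deposited, were tested here. The sources used here give neither the counting tool nor its use of strand and of reads with several positions. The deposited TPM of the authors served to compare levels between genes and 1 alternative test. The deposited FPKM and log2 normalized values of the authors were not used, nor were the columns of their own group comparison (fold changes, test statistics and p-values).

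The test was edgeR 4.0.16 run in R 4.3.3 (TMM, filterByExpr, robust glmQLFit, glmQLFTest, AGEs against BSA, no block) over 14181 genes. Standard errors were derived from the F statistic, and CPM are TMM-normalized. The biological coefficient of variation was 12.9%. Totals of 17773088 to 24472926 counts leave genes such as ND4L imprecise, and intervals cover the spread between these libraries only. All 97 genes matched RefSeq (GRCm38.p6), the source of coordinates and promoters. Transcript GC content is from GENCODE. The steps were tested on simulated counts.

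Named are all mtDNA and Sdh genes and, per complex, the nuclear genes with the highest TPM, the fewest reads and the 2 smallest p, genes with tissue-restricted relatives, Atpif1, and from each list the genes past the threshold and the 2 with the smallest p. Of the genes this rule names, 1 is not reported here, and genes only listed by name fall outside it. Members and lists were chosen with earlier results of these data known. Alternatives were DESeq2 1.42.0, RLE, upper quartile and library size scaling, TMM without mtDNA genes, no filter, at least 50 counts in 2 libraries, a block on the replicate number, leaving out each library, removal of the GC trend (span 0.5, fitted above a log2 CPM of 3), limma 3.58.1 on log2(TPM + 1), an adjusted p in place of the unadjusted one, and 2 as fold limit. Medians without the genes copied in the chromosome 1 stretch, without ATP8 as well, and without pseudogenes were added after the data were seen.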

Additional observations from a re-analysis of the deposited data

How the results depend on the processing

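The count of mtDNA genes past the threshold was 0, and it was 1 (ATP8) with library size scaling, with TMM without the mtDNA genes, with at least 50 counts in 2 libraries and with limma on log2(TPM + 1). This count and the nuclear count (0 overall) also moved when single libraries were left out, in fits that keep 1 library in a group. The share of all genes past the threshold is given here only for the edgeR test described above and for DESeq2. With limma on log2(TPM + 1) the nuclear count was 1 (Atp5l2-ps) and the nuclear median was -0.057, where the median of all genes was -0.07. The mtDNA median with this setting was -0.18, with 11 of 13 values negative. With each library left out the mtDNA median ranged between -0.28 and 0.17, the difference of the medians between -0.35 and 0.18, and the log2 ratio of the summed CPM, -0.15 with all libraries, between -0.36 and 0.09. Removal of the GC trend gave medians of -0.03 (mtDNA) and 0.02 (nuclear). Among the 6 mtDNA genes with no annotated copy in the chromosome 1 stretch described above the median was -0.17, and without ATP8 as well -0.15. Copies elsewhere in the genome were not searched for. Without pseudogenes the nuclear median was 0.04. The cause of these changes was not tested.

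Of 508 alternative values of the 34 named members tested, 459 kept direction and side of the threshold, 8 newly passed it and 41, from 19 members, changed sign without a call.

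Among the other lists, the assembly factor count (1) ranged between 0 and 2 with a library left out, the mtDNA maintenance count (0) between 0 and 1, the citric acid cycle count (0) between 0 and 1, the electron carrier count (0) between 0 and 1, the regulator count (0) between 0 and 2 and the ribosomal protein count (2) between 1 and 4. The ribosomal protein count was 1 with DESeq2 and with limma on log2(TPM + 1). The mtDNA maintenance count was 1 with the GC trend removed, with or without the replicate block. With limma on log2(TPM + 1) the medians of assembly factors, mtDNA maintenance genes and regulators were -0.072, -0.033 and -0.044.

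Over all genes, same-numbered libraries did not deviate together (correlation 0.0284), although mtDNA genes were higher in replicate 2 of both groups (12 of 13 in AGEs, 13 of 13 in BSA). Nothing in the labels pairs them. With the replicate number as a block, 0 mtDNA and 0 nuclear genes passed and the medians were -0.09 and 0.04. With the block and the GC trend removed they were -0.0062 and 0.02.

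Precision is limited by 2 libraries per group and, for ND4L, ND6, Ndufb4c and the pseudogenes, by few reads.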
